A study of Homo sapiens with 2 samples.

Results

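Chromatin accessibility was described at 9 genes of homologous recombination repair and its checkpoint signalling, BRCA1, BRCA2, PALB2, BARD1, RAD51C, RAD51D, ATM, CHEK2 and BRIP1, out of 20033 protein-coding genes annotated by GENCODE (release 44). The genes were chosen by name, not by their signal. Peaks were assigned to a gene where they overlapped its annotated body on hg38 or the 10 kb on either side. This gave 62 of 245736 peaks in replicate 1 and 59 of 259745 peaks in replicate 2. A peak counted as a transcription start site (TSS) peak where it lay within 1 kb of any annotated TSS.

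The cells were CAMA-1, a human breast cancer cell line labelled as epithelial, grown as adherent cultures without treatment. Accessibility was measured by ATAC-seq, a method that sequences the places where the enzyme Tn5 can insert adapters because the DNA is not covered by nucleosomes. The 2 biological replicates of 50000 cells each formed 1 condition, so that no groups of samples were compared and all values are descriptions of 1 cell line. Accessibility is given as fold enrichment, the height of a peak over a background common to the whole genome, as deposited.

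Homologous recombination repairs double-strand breaks with an intact copy of the sequence, usually the sister chromatid, as the template. ATM and CHEK2 are protein kinases that signal the break. BRCA1 and BARD1 form a ubiquitin ligase that favours resection of the broken ends, BRIP1 is a helicase bound by BRCA1, PALB2 connects BRCA1 with BRCA2, and BRCA2, RAD51C and RAD51D act at the later step of strand invasion. Inherited loss of these genes predisposes to breast or ovarian cancer, which is why they are followed in breast cancer models.

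All 9 genes had a TSS peak in both replicates, as did 79.3% of protein-coding genes. Fold enrichment at the canonical TSS, that of the transcript Ensembl marks as canonical, ranged from 50.6 at RAD51D to 117 at PALB2 in replicate 1 and from 54.0 to 126 at the same genes in replicate 2. Each of the 9 values lay above the median over all protein-coding genes with a peak there, which was 48.1 in replicate 1 and 49.8 in replicate 2. Promoters shared with a gene on the opposite strand were frequent: 5 of 9 genes had the canonical TSS of a protein-coding gene on the other strand within 1 kb of their own, against 10.0% of protein-coding genes. The strongest peaks away from TSSs lay beside RAD51C, in BRCA2 and at the far end of ATM.

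The promoter sequences below are shown to set the motifs of genes with strong, middle and weak TSS peaks side by side. The PALB2 promoter had the strongest TSS peak. The ATM promoter held the same 3 kinds of motif as that of PALB2 and lay among the middle values. The CHEK2 promoter was second in strength and held repeated CCAAT boxes. The BRCA2 and RAD51C promoters were among the weakest of the set. Each runs 5′ to 3′ along the gene's strand from 250 bases before to 50 after the RefSeq start (GRCh38.p14). Capitals mark exact matches, on either strand, to the ETS motif (CCGGAAGT or CCGGAAGC), the NF-Y motif or CCAAT box (CCAAT), the SP1 motif (GGGCGG), the cyclic AMP response element (CRE, TGACGTCA) and the NRF1 motif.
PALB2 (chr16:23641261-23641560, reverse strand): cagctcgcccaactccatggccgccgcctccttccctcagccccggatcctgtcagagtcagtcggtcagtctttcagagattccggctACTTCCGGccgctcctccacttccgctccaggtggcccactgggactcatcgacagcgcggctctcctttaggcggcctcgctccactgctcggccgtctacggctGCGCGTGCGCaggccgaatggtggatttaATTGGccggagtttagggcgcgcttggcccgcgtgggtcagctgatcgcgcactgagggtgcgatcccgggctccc
CHEK2 (chr22:28741771-28742070, reverse strand): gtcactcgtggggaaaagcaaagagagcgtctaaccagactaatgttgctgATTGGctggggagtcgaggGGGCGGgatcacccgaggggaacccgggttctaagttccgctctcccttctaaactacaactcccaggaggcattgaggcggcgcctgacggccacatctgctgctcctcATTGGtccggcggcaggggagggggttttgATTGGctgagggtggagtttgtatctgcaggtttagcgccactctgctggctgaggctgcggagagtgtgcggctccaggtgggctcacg
ATM (chr11:108222817-108223116, forward strand): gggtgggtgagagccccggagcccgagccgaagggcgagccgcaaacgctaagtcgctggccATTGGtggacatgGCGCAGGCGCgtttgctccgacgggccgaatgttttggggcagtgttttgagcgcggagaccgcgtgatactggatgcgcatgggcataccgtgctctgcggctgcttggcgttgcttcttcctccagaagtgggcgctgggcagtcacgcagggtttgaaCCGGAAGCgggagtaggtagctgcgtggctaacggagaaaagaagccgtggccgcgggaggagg
BRCA2 (chr13:32315258-32315557, forward strand): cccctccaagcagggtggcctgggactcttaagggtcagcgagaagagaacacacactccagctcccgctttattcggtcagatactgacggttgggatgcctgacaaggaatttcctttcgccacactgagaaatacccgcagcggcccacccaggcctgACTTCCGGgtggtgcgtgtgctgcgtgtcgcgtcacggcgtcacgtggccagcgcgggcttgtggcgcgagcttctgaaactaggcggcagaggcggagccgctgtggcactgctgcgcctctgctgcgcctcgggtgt
RAD51C (chr17:58692352-58692651, forward strand): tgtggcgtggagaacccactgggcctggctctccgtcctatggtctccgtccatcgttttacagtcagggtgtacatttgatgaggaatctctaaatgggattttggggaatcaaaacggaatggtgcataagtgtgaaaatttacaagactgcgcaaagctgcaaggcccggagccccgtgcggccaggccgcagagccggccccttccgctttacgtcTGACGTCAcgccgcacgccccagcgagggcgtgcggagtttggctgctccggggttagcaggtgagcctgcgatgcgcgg

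The TSS peaks of PALB2 and CHEK2 were the strongest. PALB2 (ENSG00000083093.11, chr16:23603160-23641321, reverse strand) had a fold enrichment of 117 in replicate 1 and 126 in replicate 2, or 121 ± 6.16 (mean ± SD, n = 2). This placed it at percentiles 91.2 and 92.6 of the protein-coding genes with a peak at the canonical TSS. CHEK2 (ENSG00000183765.24, chr22:28687743-28742422, reverse strand) had 112 and 106, or 109 ± 3.86, at percentiles 89.6 and 87.4. The replicates of the 2 genes did not overlap in fold enrichment. Their counting intervals overlapped in both replicates. In replicate 1 the highest base was covered by 507 stacked reads at PALB2 (exact Poisson 95% interval 464 to 553) and by 484 at CHEK2 (442 to 529). In replicate 2 the heights were 567 (521 to 616) and 479 (437 to 524). These intervals cover counting error only.

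A middle group was formed by ATM, BRCA1, BARD1 and BRIP1. BRIP1 (ENSG00000136492.10, chr17:61679139-61863559, reverse strand) had a fold enrichment of 77.3 in replicate 1 and 71.9 in replicate 2, or 74.6 ± 3.85. BRCA1 (ENSG00000012048.25, chr17:43044295-43170245, reverse strand) had 75.5 and 73.2, or 74.3 ± 1.61. BARD1 (ENSG00000138376.11, chr2:214725646-214809683, reverse strand) had 79.4 and 69.2, or 74.3 ± 7.19, the largest spread of the 9 genes. ATM (ENSG00000149311.20, chr11:108223044-108369102, forward strand) had 71.3 and 76.1, or 73.7 ± 3.35. The replicates of these 4 genes interleaved between 69.2 and 79.4, so that their order could not be told from their spread.

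BRCA2, RAD51C and RAD51D had the lowest values. BRCA2 (ENSG00000139618.18, chr13:32315086-32400268, forward strand) had a fold enrichment of 54.1 and 55.7, or 54.9 ± 1.17. RAD51C (ENSG00000108384.16, chr17:58692573-58735611, forward strand) had 52.0 and 56.6, or 54.3 ± 3.26. RAD51D (ENSG00000185379.21, chr17:35092221-35121522, reverse strand) had 50.6 and 54.0, or 52.3 ± 2.36. RAD51C overlapped both of the others, whereas the values of BRCA2 lay just above those of RAD51D, and none of the 3 genes overlapped the other 6. They stood near the middle of all genes with a peak, at percentiles from 52.4 to 56.4.

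**Figure D1:**
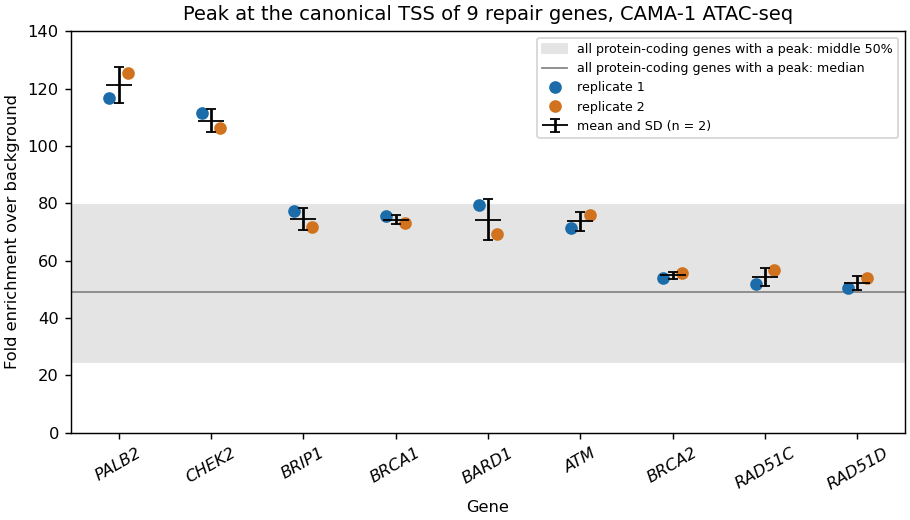
Fold enrichment over background (y axis) of the peak at the canonical TSS of each of the 9 genes (x axis) in both replicates (points), with the mean and SD (n = 2), beside the median and middle 50% of all protein-coding genes with such a peak. PALB2 and CHEK2 lie above 100 in both replicates, 4 genes lie between 69.2 and 79.4, and BRCA2, RAD51C and RAD51D lie between 50.6 and 56.6.

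Fold enrichment is relative to a background for the whole genome, so that the number of DNA copies of a region and its accessibility cannot be told apart. The median fold enrichment of peaks over 3 kb from any TSS within 2 Mb of each gene was therefore set against that of the genome. This ratio ran from 0.912 around BRIP1 in replicate 1 to 1.35 around PALB2 in replicate 2. Over their local medians, the TSS peaks of PALB2 were 12.7-fold and 12.3-fold and those of CHEK2 12.1-fold and 12.6-fold in replicates 1 and 2. The replicates of these 2 genes thus overlapped on the local scale. RAD51D was lowest in replicate 1 at 5.64-fold, BRCA2 was lowest in replicate 2 at 6.38-fold, and RAD51C had 6.28-fold and 7.21-fold. The other 4 genes lay between 8.03-fold and 10.8-fold, so that the 3 levels stayed apart on this scale too.

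The TSS peaks were wide beside the peaks as a whole. At the 9 canonical TSSs their width was between 721 and 1833 bp in replicate 1, against a median of 297 bp over all peaks. It was between 776 and 1693 bp in replicate 2, against 300 bp. Most of all peaks were not TSS peaks, as 197374 of 245736 in replicate 1 lay over 1 kb from any TSS. The widths were not compared with those of TSS peaks of other genes. PALB2, the gene with the strongest peak, had one of the narrowest, with 769 and 776 bp, whereas CHEK2 had 1664 and 1693 bp. The CHEK2 peak in replicate 1 reached 1171 bp upstream of the TSS and 492 bp downstream. The BRCA1 peak of 1833 bp in replicate 1 was called as 2 pieces in replicate 2, a main peak of 1380 bp and a weaker one of fold enrichment 9.07 upstream of it.

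Several of these peaks also covered the start of another gene. A TSS of a protein-coding gene on the other strand lay within 1 kb of a TSS of 7 of the 9 genes when every annotated TSS was used, against 17.7% of protein-coding genes, and 5 genes remained when only canonical TSSs were used. Under the PALB2 peak, 156 bp away, started DCTN5, which encodes a dynactin subunit. Under the CHEK2 peak, 219 bp away, started HSCB, which encodes a co-chaperone of iron-sulfur cluster assembly. ZAR1L started 145 bp from BRCA2, and NPAT, a gene required for histone transcription, started 429 bp from ATM, each also under the peak of its neighbour. TEX14, a gene of germ cell division, and IGBP1C started 557 bp from RAD51C, but their TSS lay outside its peak by 226 bp in replicate 1 and 210 bp in replicate 2. How much of a shared peak belongs to either gene cannot be told apart in these data.

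The long noncoding RNA NBR2 started 187 bp from BRCA1 and SNHG31 526 bp from BARD1, both under the peak of the repair gene. FNDC8 lay within 93 bp of an alternative RAD51D TSS, but 1755 bp from the canonical one and 1328 bp or more from its peak. An annotated readthrough gene on the same strand, ENSG00000267618, shared TSSs with RAD51D. BRIP1 was the only one of the 9 with no TSS of any gene on the other strand within 1 kb, against 36.8% of protein-coding genes with one. Its fold enrichment overlapped that of the other middle genes, and the part of shared promoters in peak strength was not tested. Among all protein-coding genes, 96.3% of those with a coding TSS on the other strand within 1 kb had a TSS peak in both replicates, against 75.7% of the others. The median fold enrichment at the canonical TSS was 64.2 and 64.8 for genes whose canonical TSSs were paired in this way and 45.6 and 47.1 for the others, whereas that of the 9 genes was 75.5 and 71.9.

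**Figure D2:**
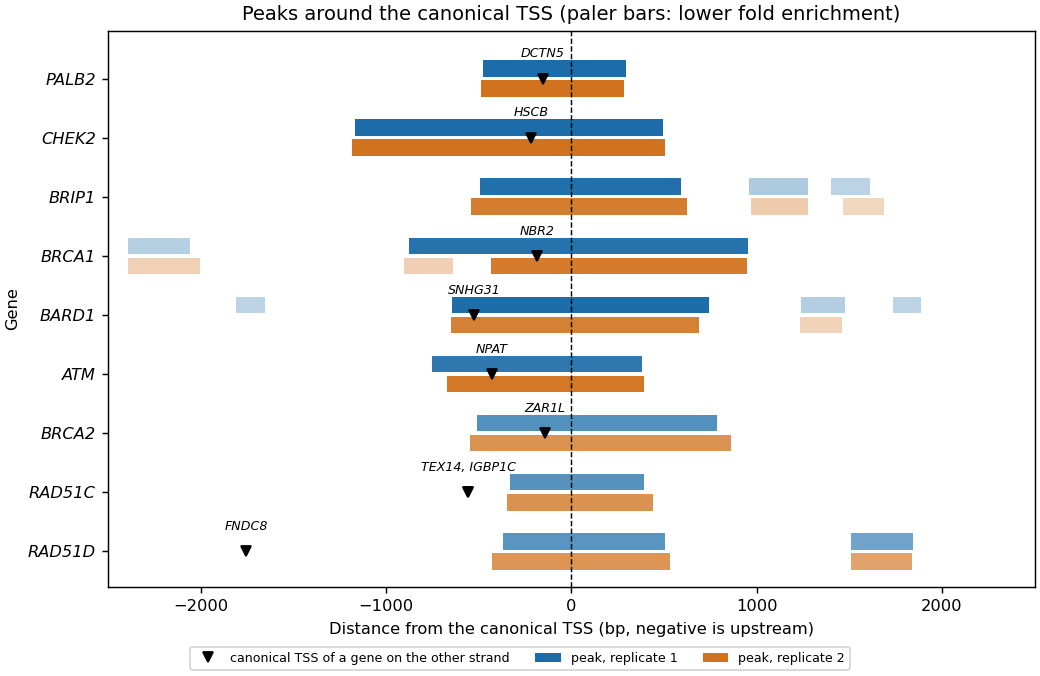
Extent of the peaks of both replicates (bars, paler at lower fold enrichment) around the canonical TSS of each gene (y axis), with the distance from that TSS in bp on the x axis and the canonical TSS of neighbouring genes on the other strand as triangles. The TSSs of DCTN5, HSCB, NBR2, SNHG31, NPAT and ZAR1L lie under the peak of the repair gene, and those of TEX14, IGBP1C and FNDC8 lie outside it.

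BRCA1 had a further TSS peak. Of its 22 annotated TSSs, 1 lay 44.9 kb upstream of the canonical one, under a peak at chr17:43168836-43171703 in replicate 1. Its fold enrichment was 78.0 and 80.9, slightly above the 75.5 and 73.2 at the canonical TSS. That peak also covered the TSSs of NBR1, an autophagy receptor gene on the other strand, of a pseudogene (ENSG00000267340) and of the noncoding RNA gene ENSG00000267002, so that it cannot be assigned to BRCA1. The regions are related in sequence. In a local alignment of the 700 bases on either side of both TSSs, 596 of 710 columns were identical (83.9%). The 2 RefSeq promoters are shown to let the copies be compared, with capitals for the NF-Y and SP1 motifs.
BRCA1, canonical (chr17:43125315-43125614, reverse strand): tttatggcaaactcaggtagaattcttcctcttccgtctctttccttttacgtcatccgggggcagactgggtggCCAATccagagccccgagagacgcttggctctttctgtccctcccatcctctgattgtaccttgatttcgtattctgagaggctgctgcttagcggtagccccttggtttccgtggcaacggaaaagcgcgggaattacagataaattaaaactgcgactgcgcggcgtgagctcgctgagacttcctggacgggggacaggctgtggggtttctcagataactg
BRCA1, upstream (chr17:43170278-43170577, reverse strand): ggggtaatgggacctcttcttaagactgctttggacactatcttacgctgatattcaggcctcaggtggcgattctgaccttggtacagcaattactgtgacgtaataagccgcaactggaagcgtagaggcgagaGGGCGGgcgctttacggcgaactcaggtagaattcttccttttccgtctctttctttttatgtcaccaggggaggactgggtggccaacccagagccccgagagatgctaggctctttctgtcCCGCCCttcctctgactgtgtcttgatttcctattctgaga

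Of the 31-base words of the canonical BRCA1 peak region, 18.6% also occurred elsewhere in hg38, and of those of the upstream region 13.0%. At the TSS regions of BRCA2, PALB2, BARD1, RAD51C, RAD51D, ATM, CHEK2 and BRIP1 this share was 0%. How the aligner settings handled repeated reads is not given in the sources used here, and the part of repeats in the BRCA1 values was not tested.

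All 9 promoters were above the median of 35116 RefSeq promoters in their ratio of observed to expected CpG dinucleotides, which was 0.579. The lowest ratio was 0.609 at CHEK2 and the highest were 1.03 at ATM and 1.05 at RAD51D. This position depended on the window. Within 500 bp on either side of the canonical TSS, BRCA1, BRIP1 and CHEK2 fell below the median of protein-coding genes. Their percentiles were 37.0, 40.5 and 43.4. GC content ran from 53.3% at BRCA1 to 73.7% at BARD1, against a median of 58.7%. BARD1 and BRIP1, with a GC content of 73.7% and 55.3%, had TSS peaks whose fold enrichments overlapped. The part of GC content in peak strength was not tested.

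The ETS motif occurred in 4 of the 9 promoters, those of BRCA2, PALB2, RAD51D and ATM, and in 7.36% of all promoters. Among the 16969 promoters with a CpG ratio of at least 0.609 it occurred in 13.3%. ETS factors are a family of activators that often act close to the start site. The NRF1 motif, named for a factor that regulates mitochondrial and housekeeping genes, occurred in PALB2 and ATM and in 5.78% of all promoters. The CCAAT box occurred in BRCA1, PALB2, ATM, CHEK2 and BRIP1, 5 of 9, against 34.6% of all promoters, with 3 copies each in CHEK2 and BRIP1. The SP1 motif occurred in 4 of 9, against 45.0% of all promoters and 76.2% of those with a CpG ratio of at least 0.609, with 5 copies in BARD1. The CRE in RAD51C was the only one in the set, and 1.85% of all promoters held one.

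No E2F motif (TTTCCCGC, TTTGGCGC or TTTCGCGC) and no TATA box (TATAAA) was found in the 9 promoters, against 2.74% and 11.5% of all promoters. Neither were the YY1 motif or the estrogen response element, which were in 1.20% and 0.0570% of all promoters. E2F factors drive genes of the S phase and the estrogen receptor binds the estrogen response element. In windows of 500 bp on either side of the canonical TSS, E2F motifs occurred in 2 of 9 genes, BRCA2 and RAD51C (8.53% of all protein-coding genes), the ETS motif in 4 (15.1%), the CCAAT box in 5 (63.8%), the SP1 motif in 8 (76.9%) and the TATA box in 1, CHEK2 (23.3%). PALB2 and ATM, which held matches to the same 3 motifs in their promoters, differed in fold enrichment by more than the spread of their replicates. The part of these motifs in peak strength was not tested. A match is a description of letters and not a measured binding site.

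TSS peaks included, the 9 genes with their flanks held 66 regions with a peak in either replicate, of which 53 had a peak in both. Of the peaks of replicate 1, 85.5% (95% Wilson interval 74.7 to 92.2%) overlapped a peak of replicate 2, against 90.2% of all peaks. Of the peaks of replicate 2, 93.2% (83.8 to 97.3%) overlapped one of replicate 1, against 84.7%. The 13 regions seen in 1 replicate were weak, with fold enrichments from 3.68 to 6.44. In the 53 shared regions, fold enrichment in replicate 2 was between 0.686 and 1.60 times that in replicate 1.

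The number of peaks differed between the genes by more than it did between replicates. ATM, the second longest gene at 146059 bp, had 3 peaks in each replicate, or 0.181 per 10 kb, at percentiles 7.53 and 6.90 of protein-coding genes. RAD51D, the shortest at 29302 bp, had 9 and 8 peaks, or 1.83 and 1.62 per 10 kb, at percentiles 62.0 and 56.2. BRCA1 had 11 peaks in both replicates, and BRCA2 had 11 and 10. The annotated body of BRCA1 reaches its upstream TSS, so that many of its peaks lay upstream of the canonical transcript, over NBR2 and NBR1. The median over the 9 genes was 0.754 peaks per 10 kb in both replicates, which is the BRCA1 value. It was 1.33 and 1.39 over all protein-coding genes. RAD51D alone lay above these medians. Not divided by length, the median number of peaks per gene was 7 and 6 for the 9 genes. It was 8 in both replicates over all protein-coding genes.

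In ATM, 115 kb downstream of the TSS peak held no peak in either replicate, followed by 2 peaks in intron 56. The stronger, at chr11:108340989-108341371, lay 118113 bp from the TSS and had a fold enrichment of 31.8 in replicate 1 and 32.9 in replicate 2, about as high as in intron 3 of BRCA2. The weaker, at chr11:108338805-108339135, had 14.5 and 12.2. Both also lie within C11orf65, a gene that overlaps ATM. The stronger peak is shown because it was the strongest within the body of ATM away from the start and held 3 of the motifs searched. The sequence is the middle 300 bases on the forward strand (hg38), with capitals for the GATA motif (AGATAA on the other strand), the AP-1 motif (TGANTCA) and the AP-2 motif.
ATM intron 56 (chr11:108341031-108341330): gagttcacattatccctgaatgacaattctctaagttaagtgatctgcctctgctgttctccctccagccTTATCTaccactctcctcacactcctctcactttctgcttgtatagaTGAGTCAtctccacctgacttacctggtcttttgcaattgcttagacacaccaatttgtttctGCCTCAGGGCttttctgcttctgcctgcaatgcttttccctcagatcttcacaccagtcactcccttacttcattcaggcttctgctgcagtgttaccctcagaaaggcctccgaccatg

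BRCA2 held the most regions away from TSSs, with 8 in both replicates. The strongest of these, in intron 3 at chr13:32320521-32320950, had a fold enrichment of 31.1 and 33.8, and a region in intron 24 at chr13:32391051-32391600 had 25.8 and 31.6. Another region of intron 24, at chr13:32384165-32385783, had 58.2 and 61.3, above the 54.1 and 55.7 at the BRCA2 TSS in both replicates. It covered the TSS of IFIT1P1, a pseudogene annotated inside the intron, and so counts as a TSS peak of that gene. BRCA2 was thus the only one of the 9 whose canonical TSS peak was exceeded by a peak inside the canonical transcript.

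RAD51C had the strongest regions away from any TSS. The one 5361 bp upstream, at chr17:58686949-58687533, lay within TEX14 and had a fold enrichment of 46.9 and 54.2, against 52.0 and 56.6 at the RAD51C TSS. The one 5783 bp beyond the end of the gene, at chr17:58741057-58741732, had 36.4 and 44.2. Of the 31-base words of the upstream region, 29.4% occurred elsewhere in the genome. RAD51D had a peak in intron 3, 1678 bp downstream of the canonical TSS and 807 bp from an alternative one, with 39.8 and 43.3. Its strongest region away from any TSS, at chr17:35129182-35129856, had 11.96 and 11.5. Downstream of RAD51D, the TSS peak of RFFL, a ubiquitin ligase gene, had 52.0 and 54.0, within the range of RAD51D itself.

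In the other 5 genes, no region away from TSSs was as strong as the strongest of ATM, BRCA2 and RAD51C. The strongest in BRIP1, in intron 16 at chr17:61723035-61723598, had a fold enrichment of 15.6 and 20.8. The strongest in BRCA1, in intron 11 at chr17:43084637-43084904, had 12.4 and 12.6. In PALB2 a region in intron 11, at chr16:23608185-23608537, had 10.6 and 11.9, and a region in coding exon 4, at chr16:23635994-23636272, had 10.4 in both replicates. BARD1 had 8.28 and 8.18 in intron 1, at chr2:214800260-214800501, and no peak over the 74.8 kb at its 3′ end and flank. CHEK2 had no region away from TSSs that was called in both replicates. A region 6637 bp beyond its end, at chr22:28680818-28681394, had 36.1 and 35.4. It lay 978 bp from a TSS of TTC28 and so counts as a TSS peak.

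**Figure D3:**
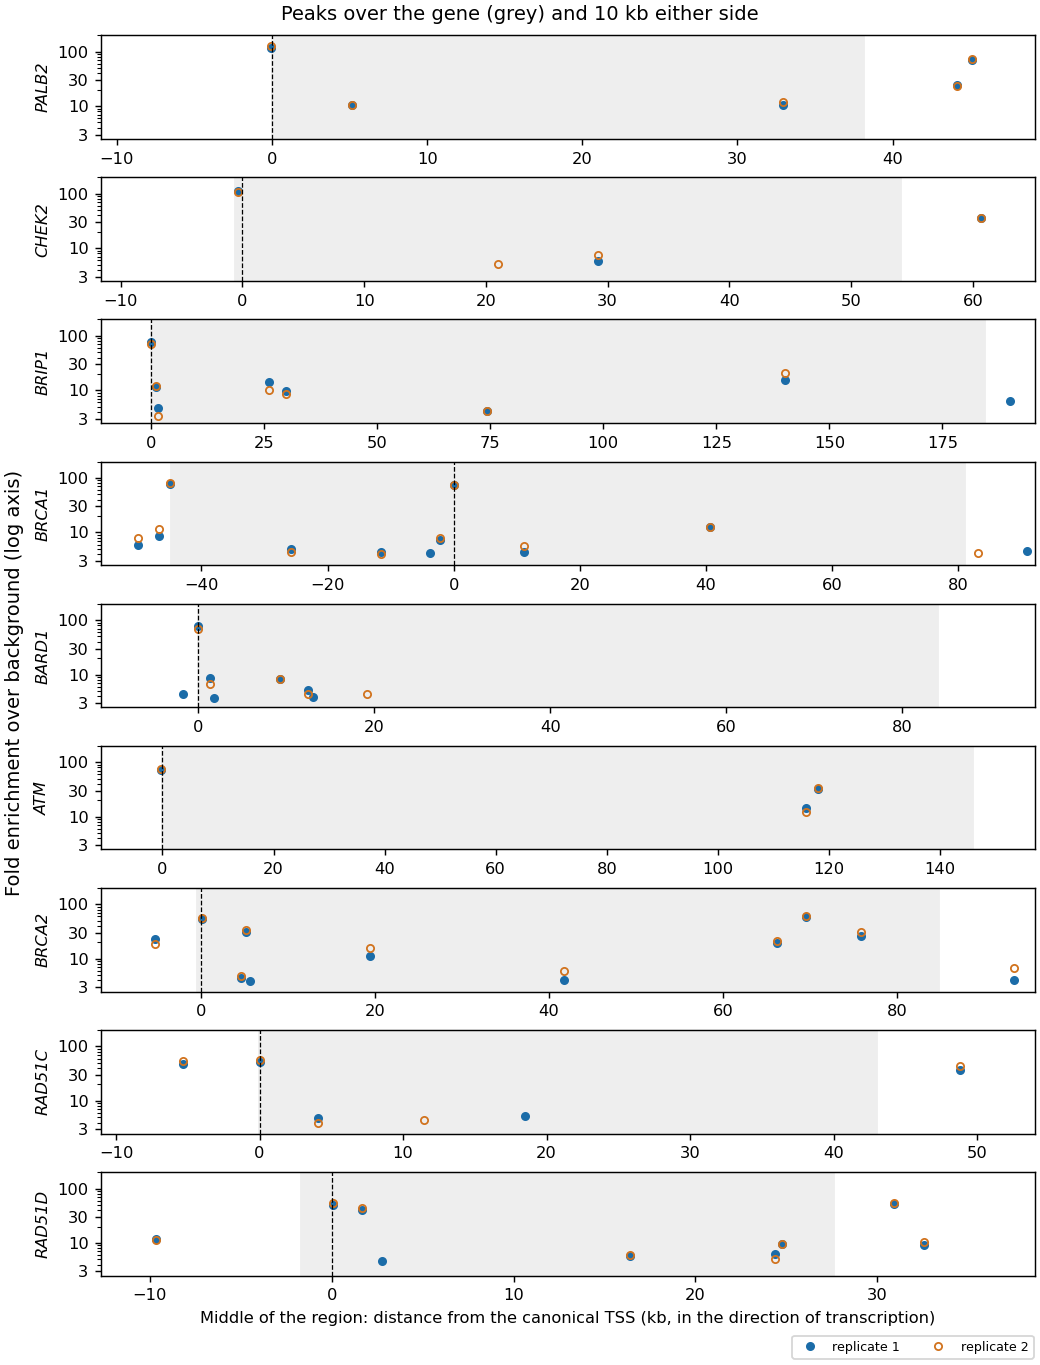
Fold enrichment over background (y axis, log scale) of every peak region of both replicates against the distance of its middle from the canonical TSS in the direction of transcription (x axis, kb), 1 panel for each gene, with the gene body in grey. The strongest point lies at the TSS in most panels, ATM holds 3 regions in all, and BRCA2 and RAD51C have points of comparable height away from the start.

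Over the 32 regions in both replicates and over 1 kb from any TSS, 18 lay in introns, 2 in coding exons, 2 in noncoding exons or untranslated regions, 7 upstream and 3 downstream of the canonical transcript. Over all peaks of the 9 genes over 1 kb from any TSS, those called in 1 replicate included, the median fold enrichment was 7.71 in replicate 1 and 8.29 in replicate 2, against 7.82 and 7.52 over all peaks of this kind. In the 21 shared regions over 3 kb from any TSS, the GATA motif occurred in 8 (38.1%), against 16.1% of 141872 such regions of the genome. These were 3 at BRCA1, 2 in BRCA2 and 1 each in BARD1, ATM and BRIP1. Of those at BRCA1, 2 lay 25846 and 49982 bp upstream of the canonical TSS, within NBR2 and NBR1. The 3 at BRCA1 were weak, with mean fold enrichments from 4.74 to 6.86, and those in the other genes had 8.23 to 32.4. GATA3 is a factor of the luminal breast epithelium, and its binding was not measured here. The AP-1 motif occurred in 3 regions (14.3%, against 14.9%), the AP-2 motif in 2 (9.52%, against 6.53%) and the FOX motif (TGTTTAC) in 1 (4.76%, against 8.44%). The estrogen response element and the CTCF motif occurred in none, against 0.100% and 0.594%.

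The other genes of the pathway were described from lists of 55 genes of homologous recombination and break signalling and 17 further Fanconi anaemia genes, which act in the repair of DNA crosslinks. Of the 55 genes, 54 had a TSS peak in both replicates, against 79.3% of protein-coding genes. The median fold enrichment of their strongest peak within 1 kb of any TSS was 60.6 and 62.7. On this scale the 9 genes had medians of 77.3 and 71.9, and all protein-coding genes with a TSS peak 51.1 and 52.6. All 17 Fanconi anaemia genes had a TSS peak in both replicates, with medians of 83.5 and 83.8. At canonical TSSs the order changed, with medians of 75.5 and 71.9 for the 9 genes and 68.1 and 71.2 for the 17. The 54 genes of the list of 55 with a peak there had 53.4 and 56.2. The gene of the 55 without a TSS peak, SLX1A, encodes a structure-specific nuclease. Of the 31-base words within 500 bp of its TSS, 100% occurred elsewhere in the genome, and the part of this in the missing peak was not tested. A coding TSS on the other strand within 1 kb was found for 27 of the 55 genes (49.1%) and 5 of the 17 (29.4%). Of all protein-coding genes, 17.7% had one.

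Among the 55 genes the strongest TSS peaks were those of XRCC3, whose product forms a complex with that of RAD51C, with 183 and 193, of RPA3, a subunit of the single-strand binding protein, with 183 and 189, and of the nuclease gene MUS81, with 182 and 186. The RPA3 value came from an alternative TSS, as the peak at its canonical TSS had 9.20 and 10.2. The weakest were DNA2, a resection nuclease, with 17.03 and 21.9, and BABAM2, a member of a BRCA1 complex, with 24.4 and 20.1. RAD51AP1, a cofactor of strand invasion, was next with 24.2 and 24.8. These ranks use the strongest peak at any TSS, and at its canonical TSS BAP1 was also low, with 19.1 and 22.6. Genes with roles next to those of the 9, chosen after their values were seen, were the kinases ATR with 101 and 109 and CHEK1 with 28.8 and 27.2. The fold enrichment at CHEK2 was higher than at CHEK1 in both replicates, and that at ATR higher than at ATM.

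Of the Fanconi anaemia genes, the strongest were ERCC4, a repair nuclease, with 190 and 175, UBE2T, a ubiquitin-conjugating enzyme, with 158 and 158, and RFWD3, a ubiquitin ligase, with 142 and 136. The weakest were FANCL, the ligase of the pathway, with 33.4 and 36.5, and MAD2L2 with 35.4 and 35.2. FANCD2, the protein that FANCL modifies, was next with 41.6 and 48.9. These ranks use the strongest peak at any TSS. At its canonical TSS FANCC had 26.7 and 27.9, below FANCL, and its 102 and 109 came from an alternative TSS. FANCM had 96.6 in replicate 1 and 32.3 in replicate 2, because a neighbouring peak of 96.6 and 96.2 lay inside the 1 kb limit in replicate 1 and outside it in replicate 2. The peak at the FANCM TSS itself had 34.1 and 32.3. FANCM was named after its values were seen.

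**Figure D4:**
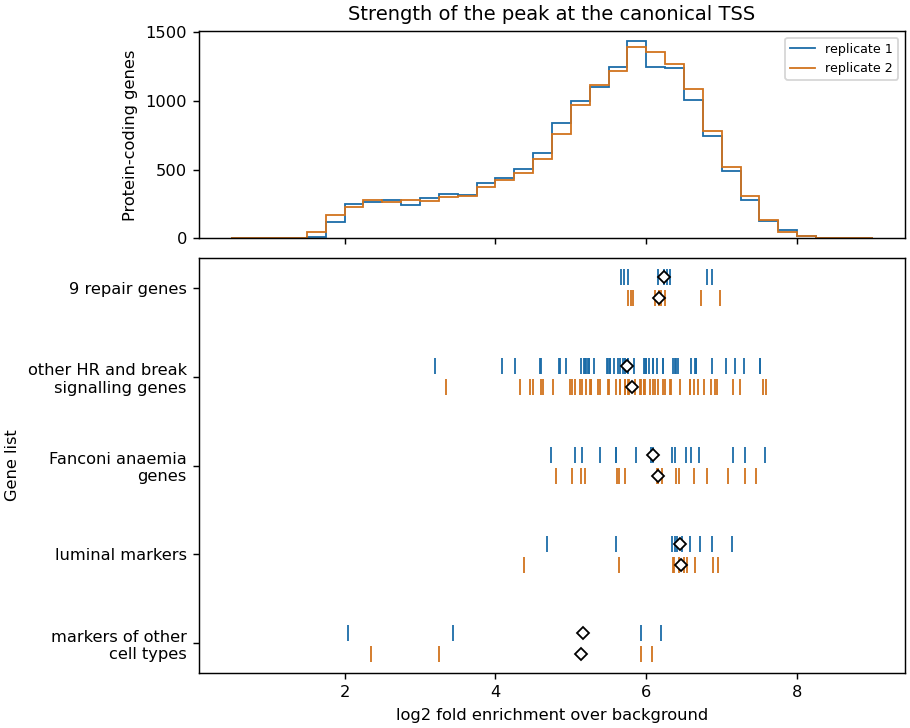
Number of protein-coding genes (upper panel, y axis) by the log2 fold enrichment of the peak at the canonical TSS (x axis) in both replicates, with the genes of each list as ticks and the list medians as diamonds (lower panel). The 9 repair genes lie to the right of the middle of all genes and inside the range of the other repair genes.

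The label of the cells was checked with marker genes. All 10 luminal epithelial markers had a TSS peak in both replicates, against 79.3% of all protein-coding genes, among them ESR1, the estrogen receptor gene, with a fold enrichment of 31.3 and 32.5. Of 10 markers of blood, endothelial, fibroblast and basal cells, 6 (60%) had one, against the same 79.3%, and none was called in both replicates at the blood and endothelial genes PTPRC, CD3E, SPI1 and PECAM1. Over all peaks, the peak lists of the 2 replicates had the same median height of 35 stacked reads. The depth of the libraries in reads is not held in these peak lists.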

How the data were processed

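ATAC-seq peaks of 2 biological replicates of CAMA-1 were used. Per the submitters' processing notes, reads were trimmed with Trim Galore 0.6.5, aligned with Bowtie2 2.3.5.1 to hg38, and peaks called with MACS2 2.2.6. The caller's settings and the handling of duplicate reads are not given in the sources used here. The authors deposited 1 peak list per replicate, without pooling, each peak with a score, a ratio of its height to the caller's background (fold enrichment), and p-values and q-values written as −log10. The deposited values hold no read counts, so that no count model was fitted, and they do not give the depth in reads.

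The fold enrichments were whole multiples of 1 step per list (0.230 and 0.221), from which peak heights in stacked reads and a background of 3.35 and 3.52 were computed. Precision is thus set by heights with a median of 35. Genes and TSSs came from GENCODE release 44 and promoter sequences from RefSeq (GRCh38.p14). A promoter entry was found for each of the 9 genes, and the one nearest the canonical TSS was used. The canonical TSS is that of the Ensembl canonical transcript. Overlap required 1 bp. Motifs were exact matches on both strands. With 1 condition there was no test. Values are means ± SD over the replicates, which may share culture conditions, and percentiles are among protein-coding genes with a peak.

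The members and lists were chosen with earlier results of these data known. The genes named are the 9 members, genes with a TSS within 1 kb on the other strand or under a member's TSS peak, the 3 strongest and 3 weakest of each pathway list by mean fold enrichment, listed genes without a TSS peak, and each member's strongest peak away from any TSS. Other names were chosen after their values were seen. Alternatives were other TSS distances, the canonical TSS alone, only peaks with a −log10 q of 10 or more, only the 50000 strongest, other flanks, windows and overlaps, and each replicate alone. Overlap, height and TSS functions were checked on simulated data. Python 3.11.15, numpy 2.4.6, pandas 2.3.3, scipy 1.17.1, matplotlib 3.10.9 and Biopython 1.88 were used.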

Additional observations from a re-analysis of the deposited data

How the results depend on the processing

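A TSS peak was called in both replicates at all 9 genes also with TSS distances of 100 bp and 3 kb, the canonical TSS alone, only peaks with a −log10 q of 10 or more, only the 50000 strongest peaks, and at all 9 with either replicate alone. The count for the other pathway genes was 71 of 72 in each of these except the 50000 strongest peaks, where it was 69. Over all protein-coding genes the share was 73.2% at 100 bp, 85.0% at 3 kb and 73.5% at the canonical TSS alone. It was 76.9% with the q limit and 61.4% with the 50000 strongest peaks. The median percentile of the TSS peaks among genes with a peak, 68.9, was 74.98 among all protein-coding genes, and 66.7 and 71.9 with 1 replicate left out. The mean number of peaks per replicate over the 9 genes, 60.5, was 134.5 with flanks of 50 kb and 59 to 62 with 1 replicate left out. The median local strength of 1.09 times the genome was 1.15 within 1 Mb, 1.07 within 5 Mb and 1.09 with either replicate left out. The median CpG ratio of 0.916 was 0.758 in windows of 500 bp on either side of the TSS. No paired analysis was possible because the design has 1 condition and so no pairs to form. Peak lists without reads set the limit: a gene without a peak may be open below the caller's threshold or in repeated sequence, and replicate spread rests on 2 samples.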
